A study of Mus musculus with 16 samples.

Results

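The microRNAs miR-10b and miR-181a come from 3 of the 1174 mouse miRNA hairpins examined, Mir10b, Mir181a-1 and Mir181a-2. They were selected on the read levels of their 5p arms in the first of a pair of libraries from cells without Dicer, so their levels in that library are given as a description, with no test. Small RNA was sequenced from mouse mesenchymal stem cells of the C57BL/6 strain, in 16 libraries, 2 in each of 8 groups. Dicer f/f cells (wild type) and Dicer -/- cells (knockout) carried mCherry, a red fluorescent protein. The remaining 6 groups were Dicer -/- cells transfected with the human enzyme, either intact (hsDicer) or with the changes D1320A, D1709A, D1320A/D1709A (the double mutant), K70A or Y971A/Y972A, so all 6 lack the mouse enzyme. Whether the replicates came from separate cultures, how many cell lines were used and how the mouse gene was removed were not stated in the labels, so a p-value measures the spread between these libraries, which may be technical.

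A miRNA gene is transcribed as a long precursor from which a hairpin is cut in the nucleus. Dicer then cuts the hairpin near its loop and frees a short duplex whose strands are the 5p and the 3p arm. The RNase IIIA domain of Dicer, changed in D1320A, cuts the strand that carries the 3p arm, and the RNase IIIB domain, changed in D1709A, cuts the strand that carries the 5p arm. The helicase domain is altered in K70A, and Y971A/Y972A alters the PAZ domain, where the open end of the hairpin is bound. The seed, near the 5′ end of an arm, pairs with target mRNAs, so a start moved by a single base changes which targets can pair. miR-10b lies in the HoxD cluster and is known from studies of cell migration, and miR-181a is known from lymphocyte development and is also made in many mesenchymal cells.

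The hairpins are shown because the arms, the loop and the ends of the reads are read against them, with the annotated mature arms in capitals (RefSeq, GRCm38.p6). Mir10b (ENSMUSG00000065500.3) lies at chr2:74726070-74726137 on the plus strand, inside the genes Hoxd3 and Hoxd4 in sense and in no exon of them. Mir181a-1 (ENSMUSG00000065565.1) lies at chr1:137966455-137966541 on the plus strand, where its end overlaps an exon of the noncoding gene A430106G13Rik. This hairpin also lies within Gm4258 in sense and within Gm26936 in antisense, and in no exon of either. Mir181a-2 (ENSMUSG00000065423.1) lies at chr2:38852735-38852810 on the plus strand, antisense within Nr6a1 and in no exon of it.
Mir10b: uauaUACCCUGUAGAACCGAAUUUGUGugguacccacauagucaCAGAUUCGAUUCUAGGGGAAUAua
Mir181a-1: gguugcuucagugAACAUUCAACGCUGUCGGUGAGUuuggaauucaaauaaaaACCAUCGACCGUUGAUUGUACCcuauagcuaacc
Mir181a-2: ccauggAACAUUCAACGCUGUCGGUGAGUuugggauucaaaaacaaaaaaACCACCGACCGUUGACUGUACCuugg

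The mature arms are shown with the seed (bases 2 to 8) in capitals, beside the nearest relatives. miR-10b-5p and miR-10a-5p share their seed, as do miR-181a-5p and miR-181b-5p. Both Mir181a hairpins give the same 5p arm, so its reads cannot be divided between them, whereas their 3p arms differ and can be told apart.
miR-10b-5p: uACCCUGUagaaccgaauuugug
miR-10a-5p: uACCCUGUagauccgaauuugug
miR-10b-3p: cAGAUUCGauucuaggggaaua
miR-181a-5p: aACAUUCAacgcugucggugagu
miR-181b-5p: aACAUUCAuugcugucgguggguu
miR-181a-1-3p: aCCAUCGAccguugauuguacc
miR-181a-2-3p: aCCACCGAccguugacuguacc

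The libraries held 10877381 to 21768558 reads, of which 10331036 to 20502254 had an insert of 15 nt or more, and levels are counts per 1e+06 of these inserts (CPM). Intervals are 95% Wilson intervals and, like a floor of 3 reads, cover counting error only, since reads carried no molecular identifiers. Reads that match hairpins made up 47.4% and 37.5% of inserts in wild type (replicates 1 and 2) and 1.54% and 0.293% in knockout. Sense reads that match mouse Dicer1 transcripts ran from 0 to 139.8 CPM over the 16 libraries. They numbered 0 and 1 in wild type and 1 and 1 in knockout, and K70A replicate 1 held the most (2068). Reads shared with the transfected human sequence were not set apart. Fragments of mRNA in a small RNA library do not check the deletion. The list of miRNAs of fibroblasts and mesenchymal cells, 13 of 13 with reads, summed to 281570 and 236965 CPM in wild type. Most of the sum in wild-type replicate 1 came from miR-22-3p (180289 CPM) and miR-21a-5p (61379 CPM). In libraries of whole cultures, fewer cells of a type and less RNA per cell cannot be told apart. Replicate 1 was read to 41 nt and replicate 2 to 51 nt in every group.

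In knockout replicate 1, miR-10b-5p reached 1412 CPM (14584 reads, interval 1389 to 1435) and miR-181a-5p 1821 CPM (18814 reads, interval 1795 to 1847). They were the sixth and the third most abundant arms there, with 9.14% (9.003 to 9.285) and 11.8% (11.64 to 11.95) of the library's 159510 miRNA reads. Knockout replicate 2 held no read of miR-10b-5p in 15967421 inserts (interval up to 0.241 CPM) and 47 reads of miR-181a-5p (2.94 CPM). The floor of 3 reads there is 0.188 CPM. Between the 2 knockout libraries, miR-10b-5p in replicate 1 was therefore 7514-fold above the floor of 3 reads in replicate 2, and miR-181a-5p was 619-fold higher. Relative to all miRNA reads of each library, the folds were 1427, again against the floor, and 117.

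Most other miRNAs did not share this level. Over the 102 arms with 2000 reads or more in wild-type replicate 1, the median level in knockout replicate 1 was 0.477% of the wild-type level, with quartiles of 0.376% and 0.586%. miR-181a-5p stood at 169% of wild-type replicate 1 and was 4.44-fold above wild-type replicate 2, and 1 of the 102 arms, miR-181a-5p itself, was above its wild-type level. miR-10b-5p, with 6 reads in wild-type replicate 1, was 4070-fold higher in knockout replicate 1, and 567-fold higher there than in wild-type replicate 2, which had 51 reads. Among the 10 arms of 100 CPM or more in knockout replicate 1, 4 were above every other library. These were miR-350-5p (1092 CPM, 37.3-fold over the next library), miR-20a-3p (1571 CPM, 20.5-fold), miR-10b-5p (1.72-fold) and miR-181a-5p (1.69-fold), and together they held 38.2% of the library's miRNA reads. Just outside stood let-7i-5p (1440 CPM), miR-125a-5p (955 CPM) and miR-21a-5p (3274 CPM), at 0.0986, 0.0979 and 0.0533 of their highest other library.

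**Figure D1:**
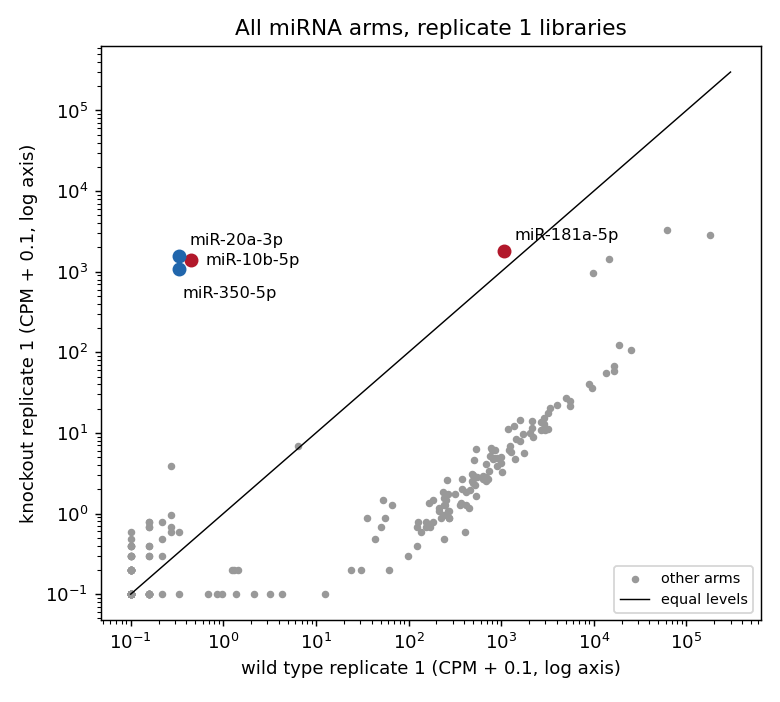
Each point is a miRNA arm, with its level in wild-type replicate 1 (x) and knockout replicate 1 (y) in CPM plus 0.1 on log axes, and the line marks equal levels. miR-10b-5p, miR-20a-3p and miR-350-5p lie far above the line at the left, miR-181a-5p lies just above it, and most arms lie in a band far below it.

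Markers of other cell types were at or near 0 in knockout replicate 1, where most miRNAs were low. The blood list summed to 2.71 CPM there, with no read of miR-223 in any library, and the lists of endothelium, neurons and muscle to 1.16, 1.26 and 0.484 CPM. In wild-type replicate 1 the same lists stood at 377, 66.0, 166 and 0.231 CPM. Each of these sums came from a single arm, in the same order miR-155-5p, miR-126a-3p, miR-219a-5p and miR-206-3p. Libraries with human Dicer, intact or changed, reached 1958 CPM for blood and 953 CPM for muscle. The muscle value was miR-206-3p alone, in Y971A/Y972A replicate 1, where miR-155-5p of the blood list stood at 936 CPM. A sum held by a single arm does not show that a set of markers was present. The liver, epithelium and pluripotent lists were at 0 in knockout replicate 1 and wild-type replicate 1. Low sums in a library with little miRNA do not show whether such cells were absent. The mesenchymal list summed to 6375 CPM in knockout replicate 1 and 1758 CPM in replicate 2. Most of the sum in replicate 1 came from miR-21a-5p (3274 CPM) and miR-22-3p (2870 CPM). There miR-29b-3p followed at 124 CPM, and miR-143-3p, miR-214-3p and miR-199a-5p were at 15.2, 13.6 and 12.9 CPM.

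A high level in one library alone did not describe either miRNA. For miR-10b-5p, the other libraries above 100 CPM were all of replicate 1: Y971A/Y972A with 821 CPM (14506 reads), K70A with 684 CPM (10127 reads) and hsDicer with 328 CPM (4728 reads). Replicate 2 of the same groups held 3.43, 44.2 and 6.87 CPM. D1320A had 67.5 and 2.46 CPM in replicates 1 and 2, and D1709A 3.05 and 0.290 CPM. Wild type had 0.347 and 2.49 CPM and the double mutant 0.243 and 0 CPM. Replicate 1 was thus above replicate 2 in 7 of 8 groups, wild type being the exception. The order of group means was knockout (706 ± 998 CPM, SD, n = 2), Y971A/Y972A (412 ± 578), K70A (364 ± 453), hsDicer (167 ± 227), D1320A (34.96 ± 45.96), D1709A (1.67 ± 1.95), wild type (1.42 ± 1.51) and the double mutant (0.121 ± 0.172). Neighbours in this order overlapped in their ranges, except wild type (6 and 51 reads) and the double mutant (4 and 0 reads).

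For miR-181a-5p, wild type had 1078 and 410 CPM and K70A 171 and 235 CPM. D1320A had 76.9 and 57.0 CPM, and D1709A 11.5 and 2.32 CPM. In hsDicer, K70A, Y971A/Y972A and the double mutant replicate 1 was below replicate 2, the opposite of miR-10b-5p. hsDicer held 0.832 CPM (12 reads) in replicate 1 and 111 CPM in replicate 2, and Y971A/Y972A 0.113 CPM (2 reads) and 43.6 CPM. The double mutant held 0.0607 CPM (1 read) and 5.47 CPM. Group means ran from knockout (912 ± 1286 CPM, SD, n = 2) and wild type (744 ± 473) through K70A (203 ± 45.4), D1320A (66.9 ± 14.1), hsDicer (56.1 ± 78.1), Y971A/Y972A (21.9 ± 30.7) and D1709A (6.90 ± 6.48) to the double mutant (2.77 ± 3.83). Wild type lay above K70A, and K70A above D1320A, without overlap, and the other neighbours overlapped.

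**Figure D2:**
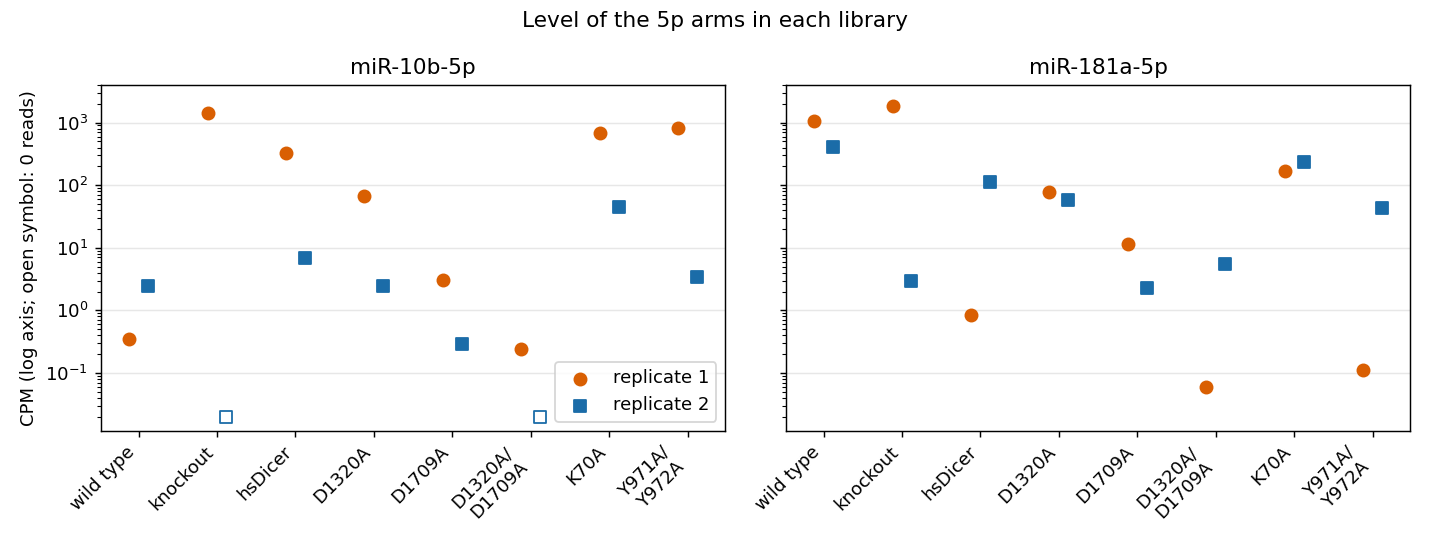
Level of miR-10b-5p (left) and miR-181a-5p (right) in CPM on a log axis, by group, with circles for replicate 1, squares for replicate 2 and open symbols for 0 reads. Within most groups the 2 replicates lie far apart, and knockout replicate 1 is the highest point of both panels.

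Of the relatives, miR-181b-5p, encoded next to miR-181a, was low in knockout replicate 1, whereas miR-125a-5p of the miR-10 superfamily was among its abundant arms. Mir181b-1 lies 97 nt downstream of Mir181a-1, and Mir181b-2 lies 1019 nt downstream of Mir181a-2. miR-181b-5p, which shares the seed of miR-181a-5p, had 28 reads (2.71 CPM) in knockout replicate 1, 0.491% of its level of 552 CPM in wild-type replicate 1. There were 672 reads of miR-181a-5p for each read of miR-181b-5p in knockout replicate 1, against 1.95 and 1.24 in wild type and 0.299 in knockout replicate 2. The opposite extreme was hsDicer replicate 1, with 12 reads of miR-181a-5p and 5736 of miR-181b-5p, a ratio of 0.00209. In the 8 libraries of replicate 2 the ratio ran from 0.299 to 2.67. miR-181d-5p had no read in knockout replicate 1 and at most 4.85 CPM elsewhere, and no read of miR-181c was found.

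In the miR-10 superfamily, miR-10a-5p, which differs from miR-10b-5p by a single base, was at 106 CPM in wild-type replicate 2 and at 0.290 CPM or less in the other libraries. miR-99b-5p and miR-125b-5p stood at 8850 and 16628 CPM in wild-type replicate 1 and at 40.3 and 58.5 CPM in knockout replicate 1. miR-125a-5p stood higher, at 955 CPM in knockout replicate 1, which was 9.79% of its level in wild-type replicate 1 and 27.7-fold its level in knockout replicate 2. Of the other miRNAs of Hox clusters, miR-196a-5p was at 4.55 CPM in knockout replicate 1 and 515 CPM in wild-type replicate 1, and miR-615-3p at 2.61 and 718 CPM.

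The reads of miR-10b-5p differed between libraries in their ends, which the choice of members did not use. The forms are shown with bases 2 to 8 of the read in capitals, so that the moved seed can be seen.
annotated start, 22 nt: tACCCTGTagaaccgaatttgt
annotated start, 23 nt: tACCCTGTagaaccgaatttgtg
start 1 nt later, 21 nt: aCCCTGTAgaaccgaatttgt
start 1 nt later, 22 nt: aCCCTGTAgaaccgaatttgtg
In knockout replicate 1, 14579 of 14584 reads (99.97%, interval 99.92 to 99.99) were the 22-nt form with the annotated start. In hsDicer replicate 1, 4718 of 4728 reads (99.8%, interval 99.6 to 99.9) were the 23-nt form. These libraries therefore each held nearly a single form, and a different one.

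In Y971A/Y972A replicate 1, 7644 of 14506 reads (52.7%, interval 51.9 to 53.5) were the 21-nt form with the later start, and 47.2% (46.4 to 48.1) the 23-nt form with the annotated start. All 56 reads of Y971A/Y972A replicate 2 were the 22-nt form with the later start (interval of the share 93.6% to 100%). In K70A, the later start made up 34.4% (33.4 to 35.3) of reads in replicate 1 and 5.86% (4.26 to 8.01) in replicate 2, where the 23-nt form with the annotated start held 83.7% (80.6 to 86.4). The share with the later start was 0.0423% (0.0116 to 0.154) and 21.7% (15.5 to 29.6) in hsDicer, replicates 1 and 2. D1320A replicate 1 had 86.2% (83.9 to 88.1) in the 22-nt form, and wild-type replicate 2 had 50 of 51 reads in it. Over all libraries 75.5% of miR-10b-5p reads began at the annotated base, and the 2 replicates differed in their leading form in hsDicer, K70A and Y971A/Y972A.

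**Figure D3:**
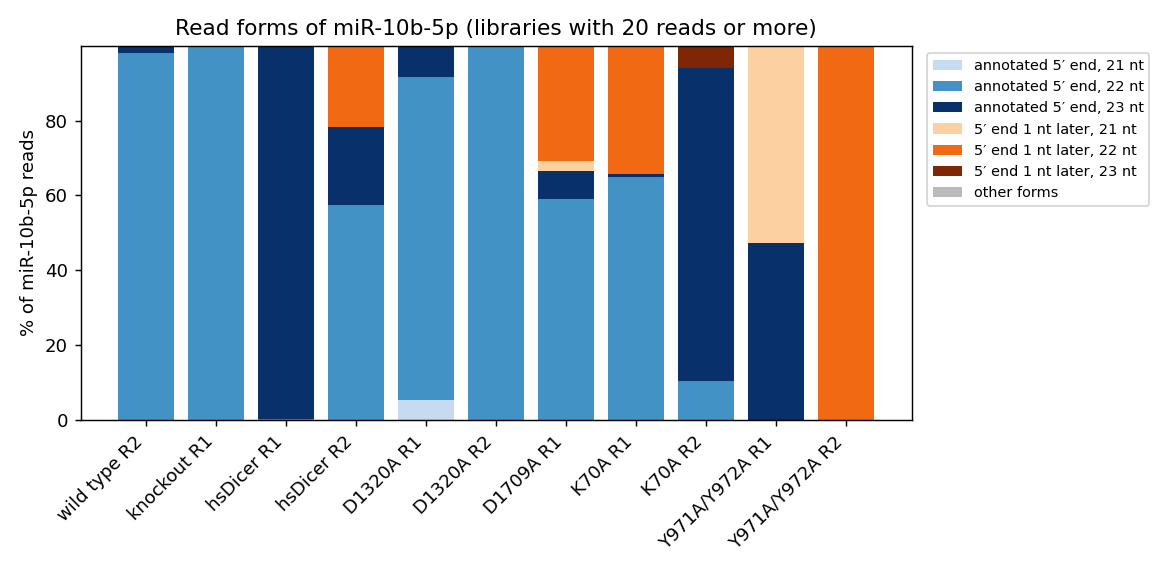
Stacked bars give the percentage of exactly matched miR-10b-5p reads in each form, by start and length, for libraries with 20 reads or more. Knockout replicate 1 is nearly all in the 22-nt form with the annotated start, hsDicer replicate 1 nearly all in the 23-nt form, and both Y971A/Y972A libraries hold forms that start 1 nt later.

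miR-181a-5p kept its annotated start in 99.8% of reads over all libraries and varied at the 3′ end. In knockout replicate 1, 70.4% (69.7 to 71.0) of reads had 23 nt and 29.6% (28.9 to 30.2) had 24 nt. The 25-nt form was 0.0266% (0.0114 to 0.0622) there, against 10.8% (10.4 to 11.3) in wild-type replicate 1, at similar read numbers. K70A replicate 1 had all 2527 reads in the 23-nt form, whereas replicate 2 divided 3265 reads into 51.4% (49.6 to 53.1) of 23 nt, 22.3% (20.9 to 23.7) of 24 nt and 20.2% (18.9 to 21.6) of 25 nt.

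Most arms of several replicate 1 libraries were, like miR-10b-5p in knockout replicate 1, nearly all in 1 form. Over arms with 1000 reads or more, the median share of the commonest form was 97.4% in wild type, 99.2% in knockout, 99.8% in hsDicer, 99.8% in the double mutant, 97.9% in K70A and 99.8% in Y971A/Y972A, all replicate 1. It was 78.4% in D1320A replicate 1, 68.1% in D1709A replicate 1 and 67.3% to 76.8% in the 8 libraries of replicate 2. In knockout replicate 1 the commonest form held 99.98% of miR-20a-3p and 99.95% of miR-350-5p reads, and 70.4% of miR-181a-5p reads, the lowest share of the 10 arms there. The part of this narrow range in the levels was not tested.

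**Figure D4:**
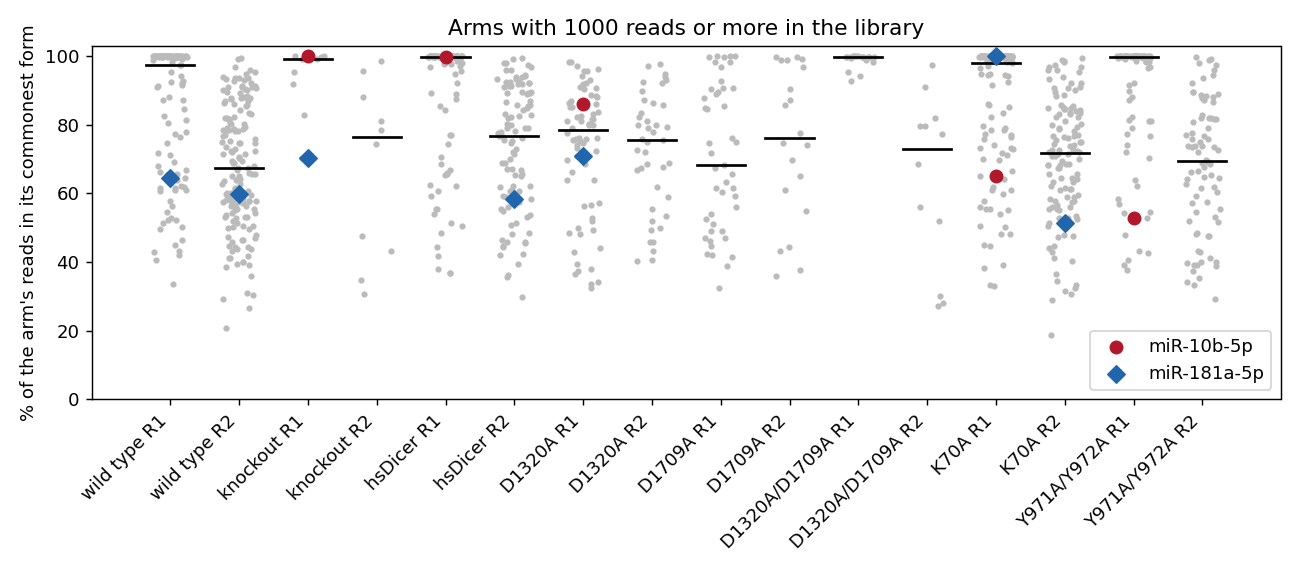
Each grey point is an arm with 1000 reads or more in a library, at the percentage of its reads in its commonest form, with a black bar at the median, red circles for miR-10b-5p and blue diamonds for miR-181a-5p. Medians lie above 97% in 6 of the 8 replicate 1 libraries and below 77% in all replicate 2 libraries.

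Reads that differ from the hairpin by 1 base were counted apart. With them, miR-10b-5p in knockout replicate 1 came to 1501 CPM and miR-181a-5p to 1970 CPM, since such reads were 5.93% and 7.54% of the total. In Y971A/Y972A replicate 1 they were 34.9% of miR-10b-5p reads, and 7139 of the 7782 were a single 24-nt form. In K70A replicate 1 they were 18.2%, and 82.7% of those differed at the last base. The shares of read forms above leave reads with a mismatch out. In Y971A/Y972A replicate 1 that 24-nt form was nearly as common as the leading exact form (7644 reads), so the shares there depend on the exact match.

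The 3p arm outnumbered the 5p arm of miR-181a in both D1709A libraries. In D1709A replicate 1, 1110 of 1257 reads were from the 3p arm (88.3%, interval 86.4 to 90.0) and 252 of 276 in replicate 2 (91.3%, interval 87.4 to 94.1). In hsDicer the share was 7.69% (1.37 to 33.3, of 13 reads) and 8.97% (7.87 to 10.2). D1320A had 0% (up to 0.330) and 3.88% (2.70 to 5.55), and those 28 reads of replicate 2 all began in the loop. Wild type had 0% and 2.46%, K70A 0% and 1.00%, and Y971A/Y972A 0% (of 2 reads) and 25.3% (22.7 to 28.2). Knockout had 0 of 18814 reads (up to 0.0204) and 6.00% (of 50 reads), and the double mutant no 3p read. D1709A did not overlap any other group, and an exact permutation test, 2-sided, of its mean of 89.8% against 8.33% in hsDicer gave p = 0.333, the smallest that 2 against 2 libraries allow.

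Both copies of the gene gave 3p reads in D1709A. Mir181a-1 gave 121 and 91 reads and Mir181a-2 gave 989 and 161 reads, in replicates 1 and 2. In hsDicer replicate 2 the counts were 119 and 87. The 3p arm of miR-10b was seen in 1 library, D1709A replicate 1, with 239 reads (18.7 CPM), all at the annotated start. It was at 0 in the other 15 libraries, and its level in D1709A replicate 1 was 89.7-fold above the floor of 3 reads in hsDicer replicate 1. Of the miR-10b reads in that D1709A library, 86.0% (81.4 to 89.6) were from the 3p arm, and D1709A replicate 2 held 3 reads, all 5p.

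**Figure D5:**
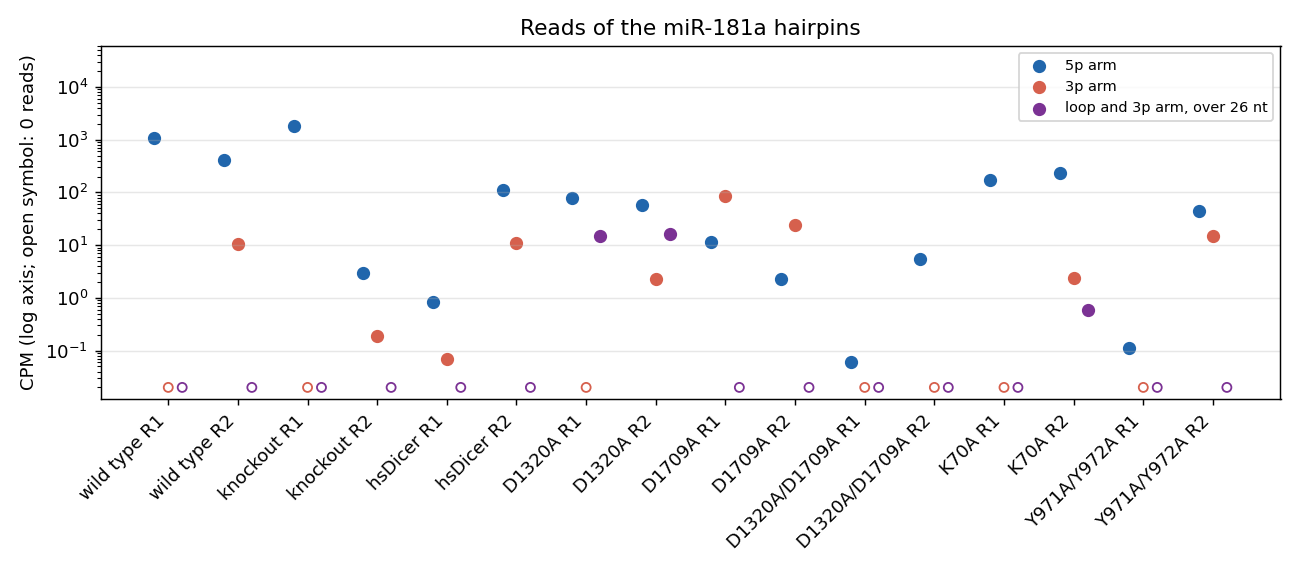
Level in CPM on a log axis, by library, of miR-181a reads of the 5p arm (blue), of the 3p arm (red), and of reads over 26 nt that hold part of the loop and the 3p arm (purple), with open symbols for 0 reads. The 3p arm is above the 5p arm in both D1709A libraries and in no other library. Loop reads reach 10 CPM in both D1320A libraries alone, from Mir181a-2 in replicate 1 and from Mir181a-1 in replicate 2.

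The tests compared groups other than knockout, and those against hsDicer share its 2 libraries. The knockout libraries, by which the members were chosen, entered the fit and its estimate of the spread. Each was tested over 540 arms with edgeR's quasi-likelihood test and Benjamini-Hochberg adjustment, and the standard errors (SE) are on the log2 scale. Between hsDicer and wild type 0% of arms were called (0 of 540, with 6 at an unadjusted p under 0.05 and 16 called by DESeq2). miR-10b-5p differed by 6.87 (SE 3.01) on the log2 scale with adjusted p = 1, and was higher in hsDicer by 9.89 in replicate 1 and 1.47 in replicate 2. With the replicate number as a block the difference was 2.77. miR-181a-5p differed by -3.73 (SE 2.49), adjusted p = 1, and was lower in hsDicer by -10.34 and -1.88. Both directions held in each replicate, and neither passed the test.

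The mutants of the RNase III domains were compared with hsDicer next. In the double mutant 7.96% of arms were called, all lower, and miR-10b-5p was among them (log2 change -10.35, SE 3.48, adjusted p = 0.0408). It was at 0.243 and 0 CPM there, against 328 and 6.87 CPM in hsDicer. The call was kept with the replicate number as a block. This call was lost when the knockout libraries were kept out of the fit (-10.35, SE 4.04, adjusted p = 0.103). It was lost with TMM scaling (-4.49, adjusted p = 0.555), with DESeq2 (-0.69, adjusted p = 1) and without hsDicer replicate 1 (-5.74, adjusted p = 0.292). It was also lost without either double-mutant library (-14.32, adjusted p = 0.178, without replicate 1, and -9.38, adjusted p = 0.380, without replicate 2). miR-181a-5p was not called (-4.34, SE 2.57, adjusted p = 0.428), and its change turned to 1.72 without hsDicer replicate 2.

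In D1709A 3.33% of arms were called, all lower, and no member was among them. miR-10b-5p differed by -6.64 (SE 2.98, adjusted p = 0.341), by -2.03 without hsDicer replicate 1 and by -0.46 with DESeq2. miR-181a-5p differed by -3.02 (SE 2.42, adjusted p = 0.835), with 3.79 in replicate 1 and -5.59 in replicate 2. In D1320A 2.04% of arms were called and no member. miR-10b-5p differed by -2.26 (SE 2.44, adjusted p = 0.871), lower in both replicates. miR-181a-5p differed by 0.25 (SE 2.24, adjusted p = 1), with an interval of -4.13 to 4.64. Between D1320A and D1709A 2.04% were called and no member, with miR-10b-5p at 4.38 (SE 2.68, adjusted p = 0.569) and miR-181a-5p at 3.28 (SE 2.44, adjusted p = 0.612).

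K70A and Y971A/Y972A gave 0% called arms against hsDicer by edgeR, with 2 and 12 arms at an unadjusted p under 0.05, and 14 and 24 called by DESeq2. For miR-10b-5p the change was 1.12 in K70A (interval -3.50 to 5.74) and 1.30 in Y971A/Y972A (-3.34 to 5.94). For miR-181a-5p it was 1.85 (-2.67 to 6.38) and -1.36 (-5.82 to 3.10). All 4 intervals hold both higher and lower levels.

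The ratio of 5p to 3p reads was tested over 183 hairpin names, with copies of a name summed, by the same tool. In all 3 comparisons 0% were called. At an unadjusted p under 0.05 there were 11, 3 and 34 names for D1320A against hsDicer, D1709A against hsDicer, and D1320A against D1709A. In the same order, limma called 13, 14 and 55 with a pseudocount of 0.5. Between D1320A and D1709A the log2 ratio of miR-181a differed by 11.12 (SE 6.22, edgeR adjusted p = 0.266), and by 8.82 with limma and a pseudocount of 0.5 (adjusted p = 0.0392). Between D1709A and hsDicer it differed by -6.54 (SE 5.03, edgeR adjusted p = 0.954).

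The related genes were described by counts beside the members. Of 13 arms of the miR-10 superfamily, 3 were lower in D1709A than in hsDicer by the edgeR test, miR-125a-5p, miR-125b-5p and miR-99b-5p, and 10 were not called, where 3.33% of all arms were called. The median log2 change was -2.59 over the list and -2.20 over all arms. In the double mutant 4 of 13 were lower, the same 3 and miR-10b-5p, with medians of -4.87 and -5.98, where 7.96% of all arms were called and the call of miR-10b-5p depended on the fit and the libraries as above. Between D1320A and D1709A only miR-99b-5p of the list was called, and it was higher in D1320A. Of the 5 arms of the miR-181 family none was called by edgeR in any of the 7 comparisons, in which 0% to 7.96% of all arms were called, so a count of 0 in 5 is near the background.

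The arms with the most similar pattern over the 16 libraries were named by Pearson's r on log2(CPM + 1) among 202 arms of 10 CPM or more on average, as a description, since libraries share depth and preparation. For miR-10b-5p they were let-7i-5p (0.61), miR-92-5p (0.58), miR-330-5p (0.57), miR-155-5p (0.56) and miR-7-5p (0.54). For miR-181a-5p they were miR-872-5p (0.76), miR-497-5p (0.71), miR-140-5p (0.71), miR-139-5p (0.69) and miR-25-5p (0.68). Without knockout replicate 1 these values were 0.65 to 0.84 and 0.82 to 0.95. The 2 members had an r of 0.18 with each other, and -0.03 without that library.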

How the data were processed

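Each deposited file gives raw, untrimmed reads and a whole-number count of how often each occurred, and no source used here names the tool that made it. Per the labels, RNA of 15 to 50 nt was cut from a gel. Adapters were trimmed on 12 matching bases inside a read or at least 5 at its end. Reads of 18 to 26 nt were matched exactly to 1174 hairpins (1087 names, GENCODE M21). Reads of several names were left out, and the hairpin midpoint set the arm. Arms with 20 or more reads (540 of 577) were tested in 1 fit over 16 libraries (edgeR 4.0.16, R 4.3.3), with inserts of 15 nt or more as library size. Biological coefficients of variation were 2.10 for levels and 1.53 for ratios. Tests were also run on simulated counts, and no estimate of their power is given here. DESeq2 1.42.0, limma 3.58.1, TMM, no filter, reads of 15 to 30 nt, the replicate block and leaving libraries out were alternatives. A fit without the knockout libraries was added after seeing the data. Dicer1 reads had 20 nt or more and matched no other mouse gene's transcripts. Members, lists and tests were chosen with earlier results of these data known. Named arms are the members, their relatives, the 5 most similar arms, and the arms highest in knockout replicate 1 relative to wild type or to every other library.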

Additional observations from a re-analysis of the deposited data

Results flagged for a closer look

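Reads over 26 nt lie outside the lengths used for the arms. Such reads that begin in the loop of a miR-181a hairpin and hold the 3p arm numbered 221 in D1320A replicate 1 (14.6 CPM) and 201 in D1320A replicate 2 (16.5 CPM). Those of replicate 1 were all from Mir181a-2 (153 reads of 41 nt and 68 of 35 nt). Those of replicate 2 were all from Mir181a-1 (37 nt), so neither hairpin gave such reads in both D1320A libraries. The 153 reads filled the read length, so where that RNA ended was not seen. Reads of this kind were 0 in wild type, hsDicer, knockout, D1709A, the double mutant and Y971A/Y972A, and 8 in K70A replicate 2. Other reads over 26 nt began at the 5p arm of miR-181a and reached into the loop or the 3p arm. They were seen in knockout replicate 2 (170), hsDicer replicate 2 (116), D1320A (99 and 118), D1709A replicate 2 (66), the double mutant replicate 2 (53) and K70A replicate 2 (36), and not in knockout replicate 1. Of these, 15 in knockout replicate 2, 30 in hsDicer replicate 2 and 69 in D1320A replicate 2 had 31 nt and ended in the loop. The rest filled the read length, 41 nt in replicate 1 and 51 nt in replicate 2, so where the RNA ended was not seen. They include 35 reads of D1320A replicate 1 that stop in the loop.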

How the results depend on the processing

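For the main results, 328 alternative values kept their direction and side of the threshold, stayed within 1.5 times (numbers of calls) or stayed within the counting interval (levels in knockout). Of the others, 18 changed direction, 6 lost a call, 3 gained one and 37 moved beyond these limits. These others are given below, and the cause was not tested. With the knockout libraries kept out of the fit, an alternative chosen after seeing the data, miR-10b-5p in the double mutant was no longer called (-10.35). Called arms numbered 16 (hsDicer against wild type), 51 (D1320A), 32 (D1709A), 98 (D1320A against D1709A), 14 (K70A) and 24 (Y971A/Y972A) with DESeq2, and 4 (D1320A), 3 (D1709A), 5 (D1320A against D1709A) and 1 (double mutant) with TMM, against hsDicer unless named. With DESeq2 the log2 change turned to 0.69 for miR-10b-5p and 0.29 for miR-181a-3p in D1320A, and to 1.85 and 2.35 for miR-181a-5p in D1709A and the double mutant. For miR-10b-5p in the double mutant it was -0.69, and -4.49 with TMM, neither called. DESeq2 called miR-10b-3p in D1709A against hsDicer (29.01) and in D1320A against D1709A (-26.29), fitted values that are no bound, since 1 library holds the reads. Ratios called by limma numbered 13 and 16 (D1320A), 14 and 35 (D1709A) and 55 and 42 (D1320A against D1709A) with pseudocounts of 0.5 and 5, and the ratio of miR-181a between D1320A and D1709A was called at 8.82 with 0.5 only.

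Leaving out each library in turn gave 3 to 11 called arms for D1320A, 1 to 20 for D1709A, 2 to 6 for D1320A against D1709A and 10 to 54 for the double mutant. For miR-10b-5p the log2 change ran from -6.08 to 2.35 in D1320A, -9.14 to -2.03 in D1709A, -14.32 to -5.74 in the double mutant, -1.92 to 5.73 in K70A and -5.60 to 5.91 in Y971A/Y972A. For miR-181a-5p it ran from -0.73 to 6.32 in D1320A, -4.59 to 3.04 in D1709A, -9.67 to 1.72 in the double mutant and -8.85 to 4.70 in Y971A/Y972A. For miR-181a-3p it ran from -6.06 to 9.38 between hsDicer and wild type, -9.43 to 3.90 in D1320A, -9.42 to 3.94 in K70A and -9.40 to 6.57 in Y971A/Y972A. A lone library left in a group is assumed to vary like the other groups.

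With the replicate number as a block (replicate block), called arms numbered 18 in D1320A and 22 between D1320A and D1709A, called ratios between D1320A and D1709A numbered 3, and miR-181a-3p in Y971A/Y972A turned to -0.33. Same-numbered libraries deviated together with correlations of -0.009 to 0.434 over 28 pairs of groups, over 0.1 in 18 and not in all. The labels tie the numbers to no shared batch, although read length followed the number in every group. With the block, miR-10b-5p between hsDicer and wild type changed from 6.87 to 2.77, not called in either fit, and in the double mutant it stayed called (-10.09, edgeR adjusted p = 0.0189).

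In knockout replicate 1, miR-10b-5p was 1501 CPM and miR-181a-5p 1970 CPM with 1 mismatch allowed. Per 1e+06 miRNA reads they were 91430 and 117949, and miR-181a-5p in knockout replicate 2 was 1004.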
